A study of Homo sapiens with 8 samples.

Results

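Heat shock proteins and cytosolic chaperones were examined as a module of 36 genes, chosen by gene symbol. All 36 were among the 19770 genes in the files, and all 36 passed the filter on low values that left 15122 genes for testing. The module holds 6 HSP70 and HSP110 genes, 4 HSP40 genes, 5 HSP70 cofactors, 2 HSP90 genes, 6 HSP90 cochaperones, the 8 subunits of the TRiC chaperonin, the 2 genes of the mitochondrial chaperonin, and HSPB1, UBB and SERPINH1.

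Chaperones bind unfolded or partly folded proteins. HSP70 proteins hold exposed hydrophobic stretches in a cycle of ATP hydrolysis that HSP40 proteins start and nucleotide exchange factors end, HSP90 finishes many kinases and receptors with its cochaperones, and TRiC folds actin and tubulin inside a closed chamber. Many of these genes are induced by heat shock factor 1 (HSF1), which binds inverted repeats of the unit GAA in their promoters, called heat shock elements.

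RNA of HEK293T cells, a line established from human embryonic kidney, was sequenced 72 h after transient transfection, with 2 libraries in each of 4 groups. Every group received 125 ng of gRNAs pooled against HBG1 and HBG2, the fetal globin genes. The control carried dCas9 with MCP-mCherry, a fluorescent protein on the MS2 coat protein. CRISPR-DREAM carried dCas9 with MCP-MSN, the SAM system carried dCas9-VP64 with MCP-p65-HSF1, and both effectors are recruited by MS2 loops in the gRNA. These 3 groups received 187.5 ng of each of 2 plasmids. The dCas9-VPR group received 375 ng of 1 plasmid, in which the effector is fused to dCas9, with gRNAs not labelled as MS2-modified. The SAM system is the group whose effector contains a part of HSF1, so its libraries were compared with those of the other 3 groups. Transfected and untransfected cells were not separated, and a change in some cells and a smaller change in all cells cannot be told apart.

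Values are counts scaled to a total of 1000000 per library (CPM), and depth estimated from the spacing of low values was 28.4 to 35.0 M reads per library. The HBG1 and HBG2 sum was 0.837 to 1.29 CPM in the control, 2195 to 2886 with CRISPR-DREAM, 709 to 863 with the SAM system and 202 to 219 with dCas9-VPR. VIM and the neurofilament genes NEFL and NEFM, which HEK293T cells are known to express, were detected in all 8 libraries, whereas the kidney factors PAX2 and LHX1 were at 0.798 to 2.25 CPM. The share of ribosomal protein transcripts was 16.9% and 17.5% in the SAM libraries and 17.3% and 19.0% with CRISPR-DREAM, which overlap, 17.7% and 18.0% with dCas9-VPR and 19.5% and 20.7% in the control, and the part of this in the results was not tested. The 36 chaperone genes together took 1.47% to 1.56% of all CPM in every library.

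Heat shock elements in the promoters are shown first because they are where HSF1 is known to bind. The promoter window ran from 250 bases before to 50 bases after each transcription start in RefSeq, and 33 of the 36 genes had an entry. A three-unit element, GAANNTTCNNGAA or its other-strand form TTCNNGAANNTTC, was in the windows of 8 of the 33 genes (24.2%), relative to 0.483% of 10984 tested genes with an entry. These were HSPA8, DNAJA1, DNAJB6, HSP90AA1, HSP90AB1, CHORDC1, HSPD1 and SERPINH1. A two-unit element, GAANNTTC or TTCNNGAA, which every three-unit element also contains, was in 18 of 33 (54.5%), relative to 13.7%. The sequences below are RefSeq reference sequence on GRCh38.p14, 5′ to 3′ on the strand of the gene, with the element in capitals. They are shown for a gene that rose in the SAM libraries (DNAJB6), for 3 that fell (HSP90AA1, HSP90AB1 and CHORDC1), for the stress-inducible pair HSPA1A and HSPA1B, and for HSPA6 because it had the largest increase after HSF1 among the chaperone genes outside the module.
DNAJB6, plus strand, chr7:157336853-157336905: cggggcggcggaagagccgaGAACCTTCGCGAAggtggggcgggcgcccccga
HSP90AA1, minus strand, chr14:102087100-102087152: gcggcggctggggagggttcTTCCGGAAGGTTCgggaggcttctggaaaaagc
HSP90AB1, plus strand, chr6:44247758-44247810: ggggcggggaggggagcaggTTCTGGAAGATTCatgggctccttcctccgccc
CHORDC1, minus strand, chr11:90223067-90223129: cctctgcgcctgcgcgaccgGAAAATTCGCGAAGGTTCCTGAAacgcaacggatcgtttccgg
HSPA6, plus strand, chr1:161524446-161524498: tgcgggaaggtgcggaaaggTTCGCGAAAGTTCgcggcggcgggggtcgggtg
HSPA1A, plus strand, chr6:31815417-31815464: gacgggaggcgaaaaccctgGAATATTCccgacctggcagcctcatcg
HSPA1B, plus strand, chr6:31827613-31827660: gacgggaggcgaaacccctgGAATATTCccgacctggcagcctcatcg

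The capitals in CHORDC1 span 3 overlapping three-unit elements, from 60 bases before the start. HSP90AB1 holds a further element from 112 bases before the start, and the element of DNAJA1, GAACTTTCCAGAA, begins at base 4 after the start. HSPA1A and HSPA1B hold a two-unit element only, at 106 and 105 bases before their starts. A match is a description of the letters and not of a bound site. The paper used p65-HSF1 as an effector domain. Whether its HSF1 part can bind these elements was not tested.

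The HSP40 genes DNAJA1 and DNAJB4, the HSP110 gene HSPH1 and the HSP70 cofactor BAG3 were higher in the SAM libraries than in every other library, whereas BAG1, CHORDC1 and DNAJB1 were lower with each of the 3 activators than in the control. With the SAM system, 10 of the 36 genes rose and 7 fell relative to the control (limma, false discovery rate below 0.05), where 35.7% of all genes tested rose and 8.89% fell. With CRISPR-DREAM 4 rose and 8 fell (18.8% and 9.25% of all genes), and with dCas9-VPR 1 rose and 5 fell (11% and 6.68%). None of the 36 was past a fold change of 2 in these comparisons, relative to 4.34%, 2.55% and 1.1% of all genes. As shares of the 36, increases were 27.8%, 11.1% and 2.78% and decreases 19.4%, 22.2% and 13.9% in the same order, and the difference of these shares from those of all genes was not tested. The control libraries enter all 3.

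The direction depended on the scaling. On the deposited scale the median of all genes was 0.16 log2 units above the control with the SAM system, and 80.1% of the calls over all genes were increases. After median-of-ratios scaling that median was 0.02, 53.5% of the calls were increases, and for the SAM system 5 chaperone genes were called higher and 14 lower, relative to 20.9% and 18.1% of all genes on that scaling. The median of the 36 genes was 0.06 on the deposited scale and -0.09 after median-of-ratios scaling. The corresponding counts were 1 and 12 with CRISPR-DREAM (14.5% and 13.2% of all genes), where increases went from 67% to 52.3% of all calls, and 0 and 7 with dCas9-VPR (7.78% and 9.16%), where they went from 62.1% to 45.9%. Differences are given below on the deposited scale, as log2(CPM + 0.5) with a standard error, and each call that ended under median-of-ratios scaling is marked.

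**Figure D1:**
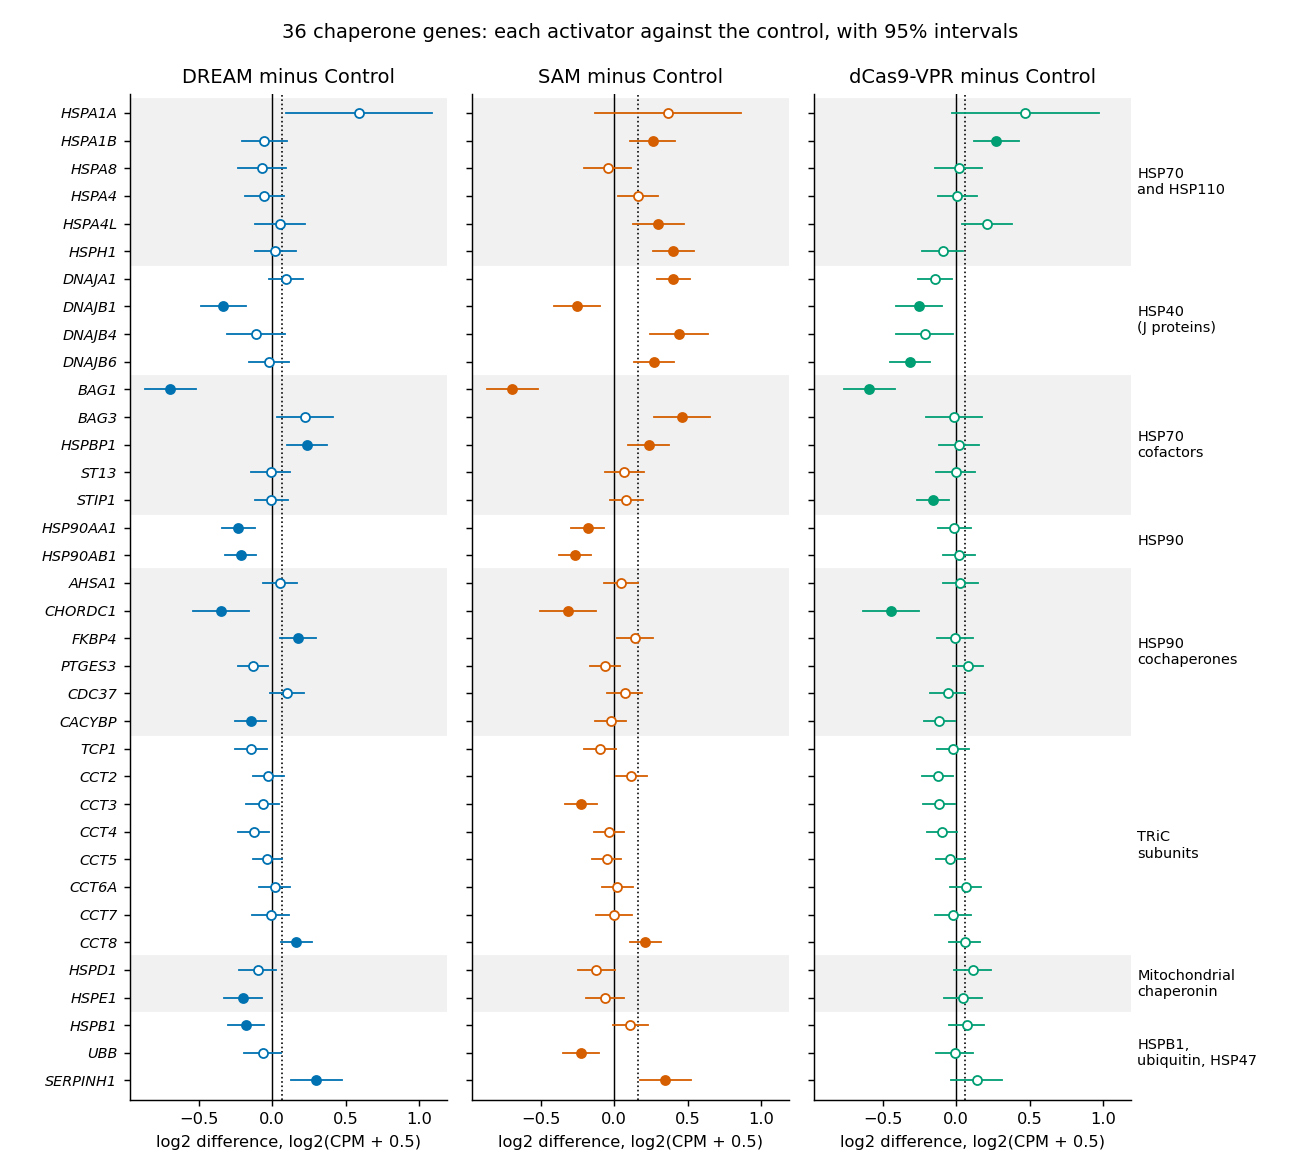
Differences of log2(CPM + 0.5) between each activator and the control for the 36 genes, grouped by role, with limma 95% intervals. Filled points passed a false discovery rate of 0.05 and dotted lines mark the median of all genes; 3 of 4 HSP40 genes lay above the control in the SAM panel, and BAG1, DNAJB1 and CHORDC1 lay below it in all 3 panels.

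Of the HSP70 and HSP110 genes, 3 of 6 rose with the SAM system, 0 with CRISPR-DREAM and 1 with dCas9-VPR. Over all genes 35.7%, 18.8% and 11% rose in the same order. HSPH1, the HSP110 that acts as a nucleotide exchange factor for HSP70, was at 96.9 and 91.2 CPM in the control libraries, 99.1 and 91.8 with CRISPR-DREAM, 120 and 129 in the SAM libraries and 88.7 and 87.6 with dCas9-VPR. Both SAM libraries were above the other 6, and the increase over the control was 0.40 (SE 0.06, limma adjusted p = 0.000757). It was 0.38 above CRISPR-DREAM (limma adjusted p = 0.00903) and 0.49 above dCas9-VPR (limma adjusted p = 0.000559), and all 3 calls held under median-of-ratios scaling. Leaving out SAM replicate 2 ended the call against CRISPR-DREAM, at 0.33 (limma adjusted p = 0.116).

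HSPA1A and HSPA1B, the stress-inducible HSP70 genes, differ at 4 of 1923 coding positions and encode the same protein. HSPA1A was given only 0.532% to 1.28% of their joint CPM, so the division of reads between them is uncertain and their sum was used. The sum amounted to 233 and 197 CPM in the control, 208 and 207 with CRISPR-DREAM, 256 and 258 in the SAM libraries and 263 and 256 with dCas9-VPR. It rose by 0.26 with the SAM system (SE 0.07, limma adjusted p = 0.0116) and by 0.27 with dCas9-VPR (SE 0.07, limma adjusted p = 0.0238). The SAM system and dCas9-VPR differed by -0.01 (95% interval -0.17 to 0.14). The SAM system was 0.31 above CRISPR-DREAM (limma adjusted p = 0.0232) and 0.19 above the mean of the other 3 groups (limma adjusted p = 0.0271). Both ended under median-of-ratios scaling (0.22 and 0.078) and without either SAM library, the first also without DREAM replicate 2 and the second without dCas9-VPR replicate 2, at 0.30 to 0.31 and 0.18 to 0.19. Median-of-ratios scaling ended the call for the SAM system, at 0.11 (limma adjusted p = 0.198), and without control replicate 2, the lower of the 2 controls, the differences were 0.14 and 0.15 and neither was called. These calls also ended without SAM replicate 1 (0.27) or 2 (0.26), and without dCas9-VPR replicate 1 (0.25) or 2 (0.29).

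HSPA8, the constitutive HSP70, was the most abundant member of its family at 1118 to 1299 CPM and passed no test, with a SAM difference from the control of -0.05 (95% interval -0.21 to 0.12). HSPA4L, an HSP110 of low level, had 57.8 and 51.8 CPM in the control libraries, relative to 66.4 and 68.6 with the SAM system. It rose by 0.30 (SE 0.08, limma adjusted p = 0.00989), a call that ended under median-of-ratios scaling and without control replicate 2 (0.22) or SAM replicate 2 (0.28). HSPA4, its relative, was above the mean of the other 3 groups by 0.18 (limma adjusted p = 0.0196), and this too ended under median-of-ratios scaling and without SAM replicate 1 (0.17) or 2 (0.19) or dCas9-VPR replicate 2 (0.16). HSPA4L and HSPA4 thus moved less than HSPH1.

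The HSP40 genes divided. DNAJA1, a J protein that delivers clients to HSC70, was at 260.2 and 255 CPM in the control libraries, 279 and 271 with CRISPR-DREAM, 327 and 355 in the SAM libraries and 234 and 231 with dCas9-VPR. Its increase was 0.40 over the control (SE 0.05, limma adjusted p = 0.000274), 0.31 over CRISPR-DREAM (limma adjusted p = 0.00947) and 0.55 over dCas9-VPR (limma adjusted p = 0.000174). DNAJB4, a J protein of the same class as DNAJB1, was at 27.8 and 23.5 CPM in the control libraries, 23.4 and 23.8 with CRISPR-DREAM, 34.7 and 35.1 in the SAM libraries and 22.2 and 21.6 with dCas9-VPR. Its increases were 0.44, 0.55 and 0.66 in the same order (SE 0.09, limma adjusted p = 0.00278, 0.00849 and 0.000667). All calls for DNAJA1 and DNAJB4 held under median-of-ratios scaling, with SAM increases over the control of 0.25 and 0.30. Without SAM replicate 2 the calls against CRISPR-DREAM ended, at 0.25 for DNAJA1 and 0.55 for DNAJB4.

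DNAJB6, a J protein known for holding back polyglutamine aggregation, was at 214 and 226 CPM in the control libraries, 213 and 220.1 with CRISPR-DREAM, 250.3 and 280.0 in the SAM libraries and 174 and 179 with dCas9-VPR. It rose by 0.27 with the SAM system (SE 0.06, limma adjusted p = 0.0053) and fell by 0.32 with dCas9-VPR (SE 0.06, limma adjusted p = 0.00765), and the 2 activators differed by 0.59 (limma adjusted p = 0.000271). With the SAM system DNAJB6 was also 0.29 above CRISPR-DREAM (limma adjusted p = 0.0186). Median-of-ratios scaling ended its increases over the control (0.12) and over CRISPR-DREAM (0.20) but not the other 2 calls. Leaving out SAM replicate 2 also ended the increase over the control, at 0.19, and the call against CRISPR-DREAM, at 0.21, and the decrease with dCas9-VPR ended without control replicate 2 (-0.28) or dCas9-VPR replicate 1 (-0.29) or 2 (-0.34).

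DNAJB1, the heat-inducible HSP40, went the other way. It was at 174 and 176 CPM in the control libraries, 131 and 147 with CRISPR-DREAM, 138 and 156 in the SAM libraries and 145 and 148 with dCas9-VPR, and no activated library reached a control library. The differences were -0.33, -0.25 and -0.25 in that order (SE 0.07, limma adjusted p = 0.00588, 0.014 and 0.0316), and all 3 held under median-of-ratios scaling. DNAJB1 overlaps TECR on the other strand, and whether the counting used strand is not given in the sources used here. The SAM call ended without SAM replicate 1 (-0.17), control replicate 1 (-0.26) or control replicate 2 (-0.24), and the dCas9-VPR call ended without any 1 of the libraries compared (-0.27 to -0.24).

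**Figure D2:**
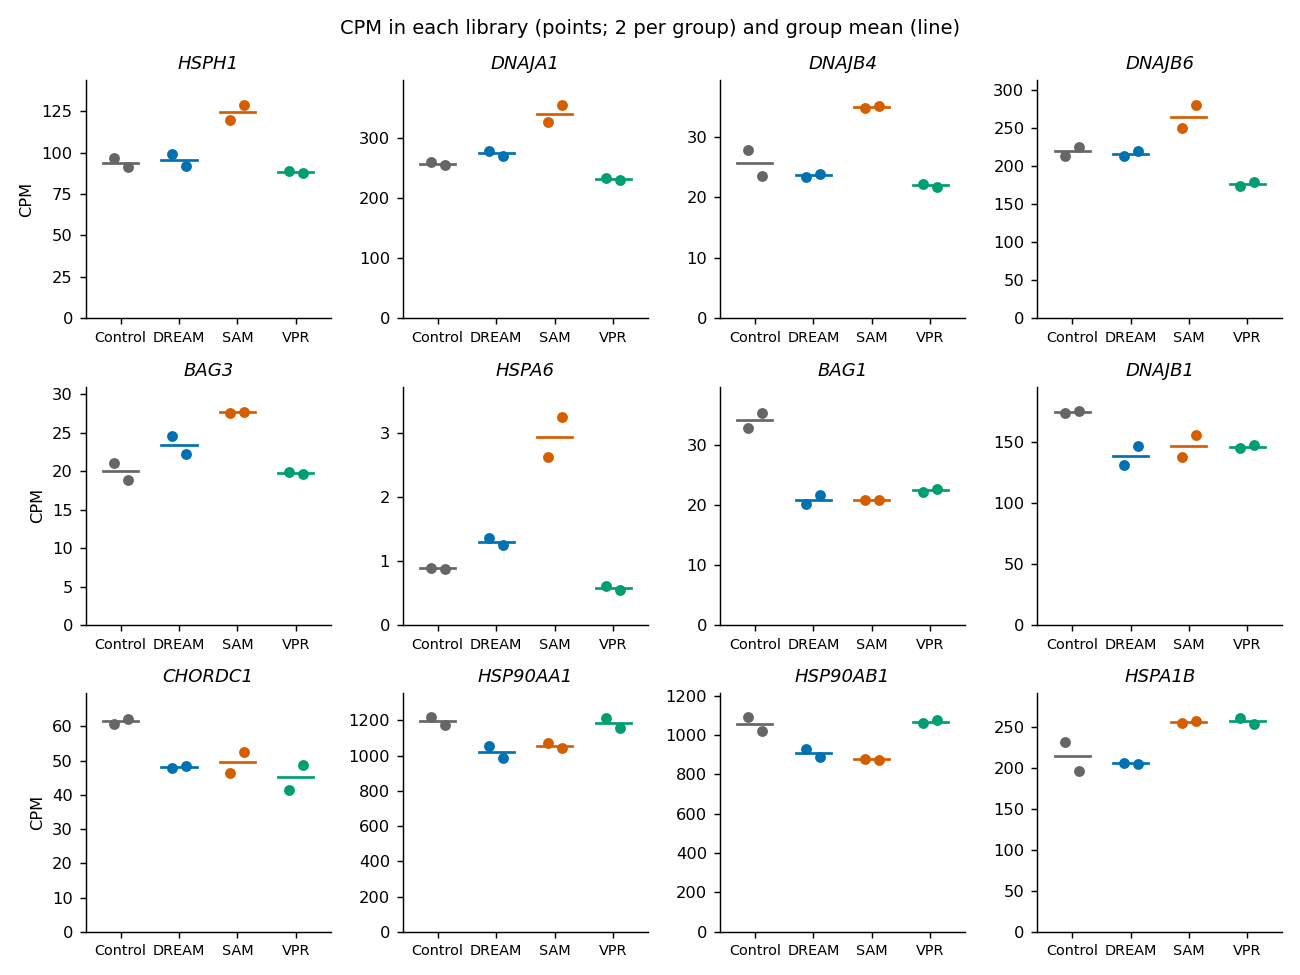
CPM in each of the 8 libraries (points) with the group mean (line) for 11 members and HSPA6, each panel starting at 0. HSPH1, DNAJA1, DNAJB4, DNAJB6, BAG3 and HSPA6 were highest in both SAM libraries, BAG1, DNAJB1 and CHORDC1 were highest in both control libraries, and the HSP90 genes were lower with CRISPR-DREAM and the SAM system.

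Among the HSP70 cofactors, BAG1 had the largest difference of any of the 36 genes from the control. BAG1, a nucleotide exchange factor that links HSP70 to the proteasome, was at 32.8 and 35.3 CPM in the control libraries, 20.2 and 21.6 with CRISPR-DREAM, 20.8 and 20.9 in the SAM libraries and 22.2 and 22.6 with dCas9-VPR. The differences were -0.69, -0.69 and -0.59 (SE 0.08, limma adjusted p = 0.000191, 0.000141 and 0.00139). The 95% interval of the SAM difference was -0.18 to 0.17 against CRISPR-DREAM and -0.28 to 0.07 against dCas9-VPR, and the 3 calls held under median-of-ratios scaling and when any 1 library was left out.

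BAG3, the exchange factor of stressed cells that directs HSP70 clients to autophagy, was at 21.1 and 18.9 CPM in the control libraries, 24.6 and 22.3 with CRISPR-DREAM, 27.6 and 27.7 in the SAM libraries and 19.9 and 19.6 with dCas9-VPR. It rose with the SAM system by 0.46 over the control (SE 0.09, limma adjusted p = 0.00197) and by 0.47 over dCas9-VPR (limma adjusted p = 0.00285), and held in both under median-of-ratios scaling and when any 1 library was left out. The difference from CRISPR-DREAM, 0.24, did not pass (limma adjusted p = 0.1), nor did the CRISPR-DREAM difference from the control, 0.23 (limma adjusted p = 0.0767). BAG1 and BAG3 thus moved in opposite directions in the same libraries.

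HSPBP1, an exchange factor, rose by 0.23 with the SAM system and 0.24 with CRISPR-DREAM (limma adjusted p = 0.0119 and 0.0167), but neither held under median-of-ratios scaling or without control replicate 2 (0.20 and 0.21), SAM replicate 2 (0.20) or DREAM replicate 2 (0.19). STIP1, which joins HSP70 to HSP90, was at 239 and 247 CPM in the control libraries, 253 and 262 with the SAM system and 218 and 217 with dCas9-VPR. With the SAM system it was higher than with dCas9-VPR (0.24, limma adjusted p = 0.005), a call that ended under median-of-ratios scaling and without SAM replicate 2 (0.22). With dCas9-VPR it was lower than in the control (-0.16, limma adjusted p = 0.0498), a call at the edge of the threshold that ended without any 1 of 6 libraries (-0.19 to -0.13). ST13, which holds HSP70 in its ADP state, was at 630 to 714 CPM and was not called.

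Both HSP90 genes were lower with CRISPR-DREAM and the SAM system, and near the control with dCas9-VPR. HSP90AA1, the inducible form, was at 1219 and 1174 CPM in the control libraries, 1054 and 986 with CRISPR-DREAM, 1071 and 1042 in the SAM libraries and 1213 and 1158 with dCas9-VPR. HSP90AB1, the constitutive form, was at 1092 and 1019 CPM, 929 and 888, 879 and 876, and 1060 and 1075 in the same order. No library of CRISPR-DREAM or the SAM system reached a control or dCas9-VPR library for either gene. HSP90AA1 fell by 0.23 and 0.18 (SE 0.05, limma adjusted p = 0.00722 and 0.0155) and HSP90AB1 by 0.21 and 0.27 (SE 0.05, limma adjusted p = 0.00872 and 0.00179). With dCas9-VPR the differences were -0.01 (95% interval -0.13 to 0.10) and 0.02 (95% interval -0.09 to 0.13). The SAM system differed from dCas9-VPR by -0.17 for HSP90AA1 (limma adjusted p = 0.0311) and -0.28 for HSP90AB1 (limma adjusted p = 0.0022). These calls held under median-of-ratios scaling. Control replicate 1 decided some of them, since without it the CRISPR-DREAM differences were -0.20 and -0.17 and the SAM difference of HSP90AA1 was -0.15, none called. Leaving out SAM replicate 2 also ended that SAM call (-0.16), and leaving out any 1 of the libraries compared ended the call of HSP90AA1 against dCas9-VPR (-0.20 to -0.13). HSP90AA1 overlaps WDR20 on the other strand.

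Of the HSP90 cochaperones, CHORDC1 fell in all 3 comparisons and 1 other, CACYBP, fell in 1. CHORDC1, a zinc-binding cochaperone whose promoter holds the 3 overlapping elements shown above, was at 60.6 and 62.2 CPM in the control libraries, 47.9 and 48.3 with CRISPR-DREAM, 46.4 and 52.5 in the SAM libraries and 41.4 and 48.7 with dCas9-VPR. All 6 activated libraries lay below both controls. The differences were -0.35, -0.31 and -0.45 (SE 0.09, limma adjusted p = 0.0133, 0.0143 and 0.00795), and they held under median-of-ratios scaling. They were -0.33, -0.29 and -0.43 and not called without control replicate 2, and those of the SAM system and dCas9-VPR ended without SAM replicate 1 (-0.22) and dCas9-VPR replicate 1 (-0.33).

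FKBP4, the immunophilin of steroid receptor complexes, rose by 0.17 with CRISPR-DREAM (limma adjusted p = 0.0391), a call that ended under median-of-ratios scaling. CACYBP, a ubiquitin ligase adaptor that binds calcyclin, fell by 0.15 with CRISPR-DREAM (limma adjusted p = 0.042). Leaving out any 1 of the 8 libraries ended the call of CACYBP (-0.16 to -0.14), and 5 of the 8 ended that of FKBP4 (0.12 to 0.18). PTGES3, the p23 cochaperone, was at 574 and 552 CPM in the control libraries, 525 and 503 with CRISPR-DREAM, 544 and 532 in the SAM libraries and 601 and 589 with dCas9-VPR. It was called only between the SAM system and dCas9-VPR (-0.14, limma adjusted p = 0.038), and not without any 1 of 6 libraries (-0.16 to -0.13). AHSA1, which activates the HSP90 ATPase, and CDC37, which brings kinases to HSP90, were at 130 to 142 and 125 to 145 CPM and were not called in any comparison. CACYBP, AHSA1 and CDC37 overlap MRPS14, VIPAS39 and PDE4A on the other strand.

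The 8 TRiC subunits stayed within narrow bounds. Their summed CPM was 4709 ± 42.3 in the control, 4581 ± 112 with CRISPR-DREAM, 4606 ± 166 in the SAM libraries and 4526 ± 48.6 with dCas9-VPR (mean ± SD, n = 2). CCT8, the theta subunit, was at 366 and 355 CPM in the control libraries, 403 and 404 with CRISPR-DREAM, 404 and 430.1 in the SAM libraries and 373 and 376 with dCas9-VPR. It rose by 0.21 with the SAM system (SE 0.05, limma adjusted p = 0.00525) and by 0.17 with CRISPR-DREAM (limma adjusted p = 0.0257), and it was 0.15 higher with the SAM system than with dCas9-VPR (limma adjusted p = 0.032), but none of the 3 calls held under median-of-ratios scaling (0.06, 0.10 and 0.06). CCT3, the gamma subunit, had 955 and 977 CPM in the control libraries, relative to 805 and 847 with the SAM system. It fell there by 0.23 (SE 0.05, limma adjusted p = 0.00472), and the call held under median-of-ratios scaling, at -0.38. CCT2, the beta subunit, was at 507 and 539 CPM with the SAM system and 443 and 440 with dCas9-VPR, a difference of 0.24 (limma adjusted p = 0.0042) that ended under median-of-ratios scaling. The others, TCP1, CCT4, CCT5, CCT6A and CCT7, were not called on the deposited scale. CCT3 and TCP1 overlap TSACC and ACAT2 on the other strand. Without SAM replicate 2 the SAM difference of CCT8 was 0.17 and that of CCT2 from dCas9-VPR was 0.20, neither called, the CCT8 difference from dCas9-VPR ended without SAM replicate 2 (0.11) or dCas9-VPR replicate 1 (0.15) or 2 (0.16), and the CRISPR-DREAM call of CCT8 ended without any 1 of 5 libraries (0.14 to 0.19).

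Per kilobase of transcript, the order of the TRiC subunits was the same in the control, CRISPR-DREAM and dCas9-VPR, from CCT3 at the top to CCT6A at the bottom. With the SAM system CCT3 and CCT7 changed places, at 418 and 428 CPM per kilobase, relative to 489 and 428 in the control. The ratio of the highest to the lowest subunit was 4.28 in the control and 3.7 with the SAM system. These are levels of transcripts, with 1 transcript model per gene.

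The mitochondrial chaperonin genes HSPD1 and HSPE1, which lie head to head and share a promoter region, were highest in the dCas9-VPR libraries. They overlap each other on opposite strands, HSPD1 also overlaps MOB4 on the other strand, and HSPE1 overlaps HSPE1-MOB4 on its own strand. How the counting treated reads in these overlaps is not given in the sources used here. HSPD1 was at 712 and 647 CPM in the control libraries, 651 and 617 with CRISPR-DREAM, 638 and 610.3 in the SAM libraries and 739 and 727 with dCas9-VPR. HSPE1, its cofactor, was at 118 and 117 CPM, 97.8 and 107, 112 and 113, and 124 and 119 in the same order. HSPE1 fell by 0.20 with CRISPR-DREAM (SE 0.06, limma adjusted p = 0.0274), and HSPD1 differed by -0.23 between the SAM system and dCas9-VPR (limma adjusted p = 0.0112). Both held under median-of-ratios scaling. The first ended without DREAM replicate 1 (-0.13) or either control (-0.20), and the second without SAM replicate 2 (-0.20) or either dCas9-VPR library (-0.24 and -0.22).

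HSPB1, a small heat shock protein that holds clients for HSP70, was at 113 and 115 CPM in the control libraries, 102 and 99.0 with CRISPR-DREAM, 126 and 120 in the SAM libraries and 122 and 116 with dCas9-VPR. It fell by 0.18 with CRISPR-DREAM (limma adjusted p = 0.0352) and was 0.29 higher with the SAM system than with CRISPR-DREAM (limma adjusted p = 0.0142). SERPINH1, or HSP47, the collagen chaperone of the endoplasmic reticulum, was at 153 and 141 CPM in the control libraries, 189 and 174 with CRISPR-DREAM, 198 and 177 in the SAM libraries and 172 and 152 with dCas9-VPR. It rose by 0.35 with the SAM system and 0.30 with CRISPR-DREAM (SE 0.08, limma adjusted p = 0.00534 and 0.0163), and both held under median-of-ratios scaling. UBB, a polyubiquitin gene, had 2393 and 2587 CPM in the control libraries, relative to 2086 and 2169 with the SAM system. It fell there by 0.23 (SE 0.06, limma adjusted p = 0.00862), and the call held under median-of-ratios scaling, at -0.38. Without control replicate 2 none of these calls against the control passed, at -0.16 for HSPB1, 0.29 and 0.24 for SERPINH1 and -0.17 for UBB. The HSPB1 decrease ended without any 1 of 5 libraries (-0.19 to -0.16), the SAM calls of SERPINH1 and UBB also ended without SAM replicate 1 (0.26 and -0.20), and the CRISPR-DREAM call of SERPINH1 ended without DREAM replicate 1 (0.24). Without SAM replicate 1 or 2 HSPB1 was no longer called against CRISPR-DREAM (0.25 and 0.32).

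The comparison of the SAM system with the other groups asks whether chaperone genes stand apart where the effector holds a part of HSF1. Relative to CRISPR-DREAM, 7 rose and 0 fell, where 9.14% of all genes rose and 1.59% fell, and 14 of the 36 were at an unadjusted p below 0.05. Without SAM replicate 2 no gene of the 36 was called higher, and after median-of-ratios scaling 4 were higher and 1 lower (3.99% and 3.76% of all genes). Relative to dCas9-VPR, 9 rose and 5 fell (23.6% and 6.32% of all genes), and 5 were higher and 8 lower after median-of-ratios scaling (15.9% and 12.1%). Relative to the mean of the 3 other groups, 14 rose and 4 fell (29.7% and 5.91%), and 5 were higher and 10 lower after median-of-ratios scaling (16.7% and 14.2%). The share of increases among all calls went from 85.2% to 51.5%, from 78.9% to 56.8% and from 83.4% to 54% under that scaling. The SAM libraries enter all 3 comparisons.

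The genes called higher than the mean of the other groups on both scalings were HSPH1, DNAJA1, DNAJB4, DNAJB6 and BAG3. BAG1 (-0.27 and -0.37), HSP90AB1, CCT3 and UBB were called lower on both, and DNAJB1, HSPA8 and ST13 were called on neither. BAG1 was also lower than the control with CRISPR-DREAM and dCas9-VPR, and the SAM system was not called different from either for this gene. For the 5 genes called higher on both, the differences were 0.43, 0.42, 0.55, 0.38 and 0.39 on the deposited scale. They were 0.32, 0.31, 0.44, 0.27 and 0.28 after median-of-ratios scaling. Both SAM libraries were above all 6 others in 9 of the 36 genes, relative to 27.1% of all genes, and below them in 3, HSP90AB1, CCT3 and UBB, relative to 4.52%. The increases were small, and the largest, of DNAJB4, was a fold of 1.47 over the mean of the other groups.

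**Figure D3:**
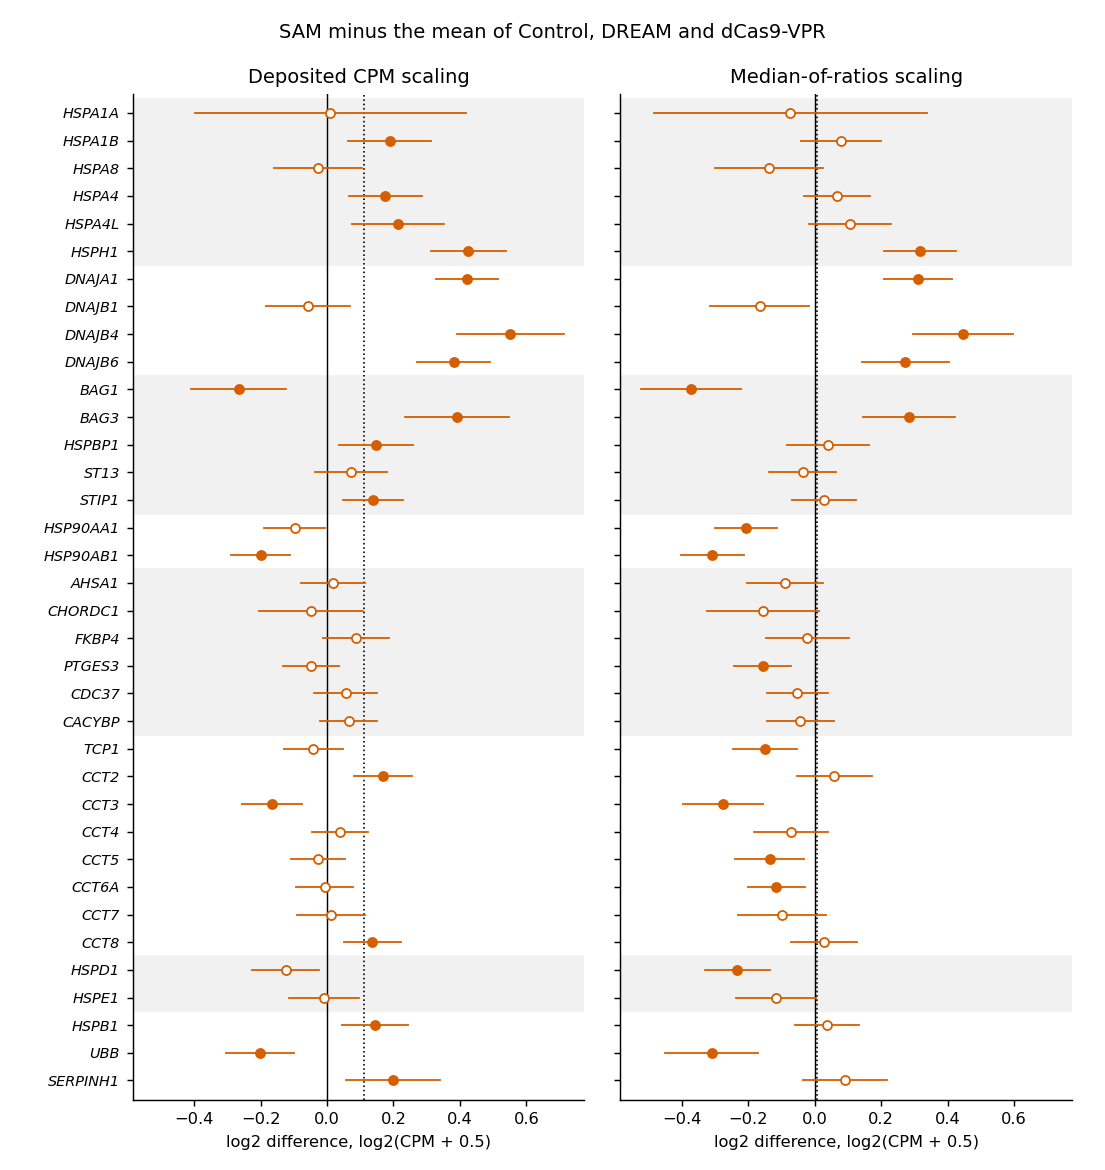
Difference of log2(CPM + 0.5) between the SAM system and the mean of the control, CRISPR-DREAM and dCas9-VPR, with limma 95% intervals, on the deposited scale (left) and after median-of-ratios scaling (right). Filled points passed a false discovery rate of 0.05 and dotted lines mark the median of all genes, 0.11 on the left; filled points above 0 fell from 14 to 5 and those below 0 rose from 4 to 10.

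Genes with a three-unit element went both ways in the SAM libraries. Of the 8 genes with one, 3 rose with the SAM system relative to the control (DNAJA1, DNAJB6 and SERPINH1), 3 fell (HSP90AA1, HSP90AB1 and CHORDC1) and 2 were not called (HSPA8 and HSPD1). Their median difference was -0.08, relative to 0.07 for the 25 genes with no exact match in the window, of which 7 rose and 4 fell. Of the 8, DNAJB6 was no longer called after median-of-ratios scaling, and HSPD1 was then called lower. Of the 18 genes with a two-unit element, 6 rose and 4 fell, and of the 15 without one 4 rose and 3 fell. Over all genes 35.7% rose and 8.89% fell.

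Levels per kilobase of transcript spanned a wide range. UBB was highest in every group, at 2280 to 2669 CPM per kilobase, followed by HSPA8 at 529 to 560.3. The HSP90 genes were at 316 to 371 (HSP90AA1) and 343 to 418 (HSP90AB1). DNAJA1 was the most abundant of the HSP40 genes in every group, at 100.4 to 147, while DNAJB4 was at 7.56 to 12.03, BAG3 at 7.72 to 10.8 and BAG1 at 5.46 to 8.91. In the control BAG1 was above BAG3, at 8.91 relative to 7.81, whereas BAG3 was above BAG1 with all 3 activators, at 9.16 relative to 5.46 with CRISPR-DREAM, 10.8 relative to 5.46 with the SAM system and 7.72 relative to 5.86 with dCas9-VPR. BAG1, DNAJB4 and BAG3 were thus among the lowest of the 36. The order of BAG1 and BAG3 depends on the transcript lengths used, 3820 and 2561 bases. In CPM, BAG3 was above BAG1 with CRISPR-DREAM and the SAM system, but BAG1 was above BAG3 with dCas9-VPR, at 22.4 relative to 19.8.

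**Figure D4:**
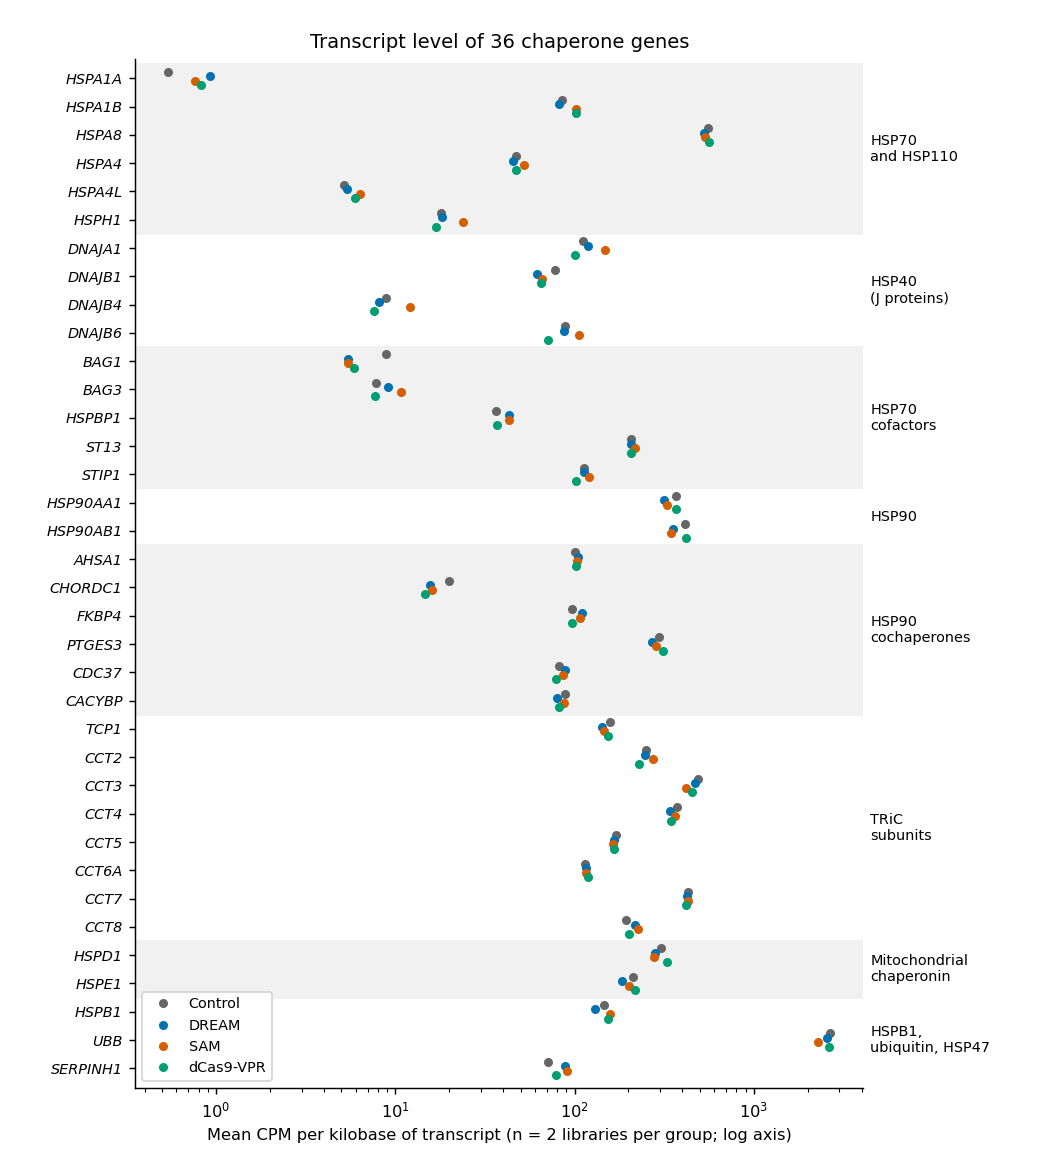
Mean CPM per kilobase of transcript in the 4 groups (n = 2 libraries each) for the 36 genes, by role, on a log axis. UBB lay highest and HSPA1A lowest, and the spread between groups was small relative to that between genes, with BAG1 above BAG3 in the control and below it with the 3 activators.

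HSF1 itself was at 61.6 and 58.0 CPM in the control libraries, 68.8 and 58.5 with CRISPR-DREAM, 1173 and 1230 in the SAM libraries and 54.9 and 56.6 with dCas9-VPR. The increase with the SAM system was 4.32 (SE 0.07, limma adjusted p = 2.93e-10), and reads of the transfected effector and of the endogenous gene cannot be told apart.

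Among 109 further chaperone and heat shock genes tested, HSF1 included, 30 rose and 16 fell with the SAM system (35.7% and 8.89% of all genes), and 14 and 30 did so after median-of-ratios scaling (20.9% and 18.1%). Of the 12 other heat-inducible genes listed, 11 were tested, and 3 rose and 5 fell with the SAM system. With CRISPR-DREAM 3 rose and 5 fell (18.8% and 9.25% of all genes), and with dCas9-VPR 1 rose and 5 fell (11% and 6.68%). HSPA6, the strictly inducible HSP70 whose promoter element is shown above, was at 0.893 and 0.877 CPM in the control libraries, 1.35 and 1.25 with CRISPR-DREAM, 2.62 and 3.25 in the SAM libraries and 0.601 and 0.545 with dCas9-VPR. On the log2(CPM + 0.5) scale, which understates the change of a gene this low, it rose by 1.30 over the control (SE 0.17, limma adjusted p = 0.000311) and by 1.67 over dCas9-VPR (limma adjusted p = 0.000259), and both held under median-of-ratios scaling and without any 1 library. It also rose over CRISPR-DREAM, by 0.92 (limma adjusted p = 0.0127), a call that ended without SAM replicate 2 (0.79) or DREAM replicate 2 (0.88). HSPA6 passed the filter of 1 CPM in 2 libraries only through the CRISPR-DREAM and SAM libraries, so its testing depended on those groups. The coding sequence of HSPA6 is 80.9% identical to that of HSPA1B, a far more abundant transcript, and how the counting divided shared reads is not given in the sources used here.

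HSPA2, the HSP70 of the testis, rose with the SAM system and CRISPR-DREAM, by 1.08 and 0.86 (limma adjusted p = 0.000167 and 0.000844), from 6.09 and 6.75 CPM in the control to 13.0 and 15.3 and to 11.0 and 13.2. CRYAB, a small heat shock protein, rose with all 3 activators (0.82, 0.71 and 1.22 for the SAM system, CRISPR-DREAM and dCas9-VPR), from 3.04 and 1.66 CPM in the control, and without control replicate 2 or SAM replicate 1 its SAM call ended (0.47 and 0.65). ZFAND2A and RGS2, chosen after their values were seen, fell with the SAM system by 0.72 and 0.76 (limma adjusted p = 0.00245 and 0.000419). For both genes the control libraries were above every library of all 3 activators. Mean CPM in the control, CRISPR-DREAM, SAM and dCas9-VPR libraries was 29.1, 16.6, 17.6 and 11.8 for ZFAND2A. For RGS2 it was 16.1, 9.87, 9.35 and 12.1. Genes known to be heat-inducible thus moved in both directions, as the members did.

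Of 27 further HSP40 genes tested, 12 rose and 2 fell with the SAM system (35.7% and 8.89% of all genes). Their median was 0.26, relative to 0.16 for all genes. After median-of-ratios scaling 3 rose and 2 fell (20.9% and 18.1% of all genes). DNAJC16 and DNAJC18, J proteins bound to membranes of the endoplasmic reticulum, rose by 0.78 and 0.70 (limma adjusted p = 0.000311 and 5.37e-05). DNAJC28 rose by 0.55 (limma adjusted p = 0.019). That call ended under median-of-ratios scaling (0.44) and without any 1 of the control or SAM libraries (0.49 to 0.62). Of 24 further cochaperones, 6 rose and 2 fell, and 4 and 4 did so after median-of-ratios scaling, relative to the same shares of all genes. BAG5, an exchange factor of HSP70, was at 33.6 and 29.6 CPM in the control libraries, 32.8 and 28.5 with CRISPR-DREAM, 46.2 and 46.7 in the SAM libraries and 35.5 and 33.0 with dCas9-VPR. It rose by 0.55 (SE 0.09, limma adjusted p = 0.000945) and was higher with the SAM system than with each other group on both scalings, although without SAM replicate 2 the call against CRISPR-DREAM ended (0.59), as did that against dCas9-VPR without dCas9-VPR replicate 2 (0.38). TOMM34, which serves HSP70 and HSP90 at mitochondrial import, and SUGT1, an HSP90 cochaperone, rose by 0.65 and 0.44 (limma adjusted p = 0.00026 and 0.000928). HSPA14, a ribosome-bound HSP70, fell by 0.39 (limma adjusted p = 0.000742).

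**Figure D5:**
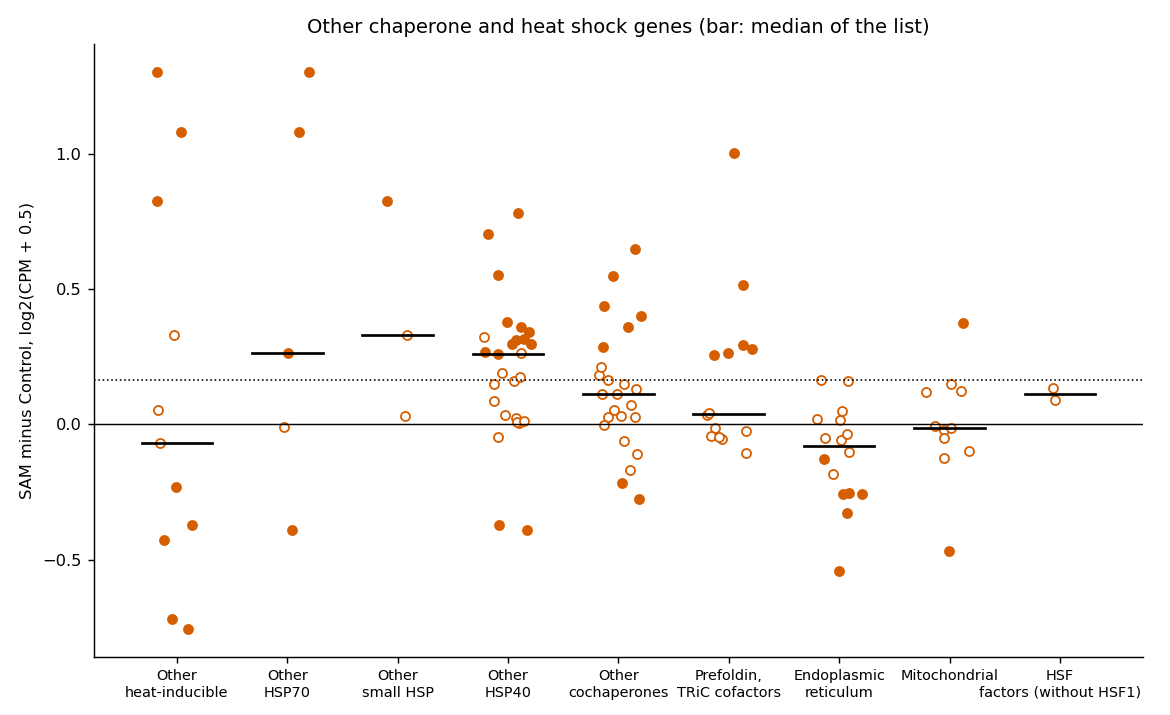
Difference of log2(CPM + 0.5) between the SAM system and the control for the other chaperone and heat shock genes tested (points, filled where a false discovery rate of 0.05 was passed), by list, without HSF1 itself. Bars mark each list's median and the dotted line the median of all genes, 0.16; HSPA6 and HSPA2, which stand in 2 lists, were highest at 1.30 and 1.08, and the endoplasmic reticulum list had the lowest median, -0.08.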

How the data were processed

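RNA was sequenced as paired-end reads after stranded library preparation with a total RNA kit, although the labels give polyA RNA. The authors aligned reads to hg38 (Gencode release 36) with STAR 2.7.3a, used a Bayesian estimate of transcript levels, and deposited CPM (counts scaled to a total of 1000000) with 0.0001 added to each. The choice of the genes listed is not given in the sources used here.

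The offset was removed, and log2(CPM + 0.5) was fitted with limma 3.58.1 (R 4.3.3, trend and robust options) on all 8 libraries, with 1 coefficient per group and 4 residual degrees of freedom. A gene was tested where 2 or more libraries reached 1 CPM, which left 15122, and calls used a Benjamini-Hochberg false discovery rate below 0.05 over all of them. Tested on simulated SAM and control libraries, the fit recovered 11 of 50 genes changed 1.25-fold, 34 of 50 changed 1.5-fold and 48 of 50 changed 2-fold. The simulation changed 50 genes at each fold, whereas 5398 genes were called higher in the data, so these shares need not hold there. No count model was fitted, because between 64.2% and 73.1% of values under 0.3 CPM per library lay within 0.05 of a whole step of 1 read, so reads were not recovered. Samples were grouped by title, and p-values measure the spread between libraries that the labels do not tie to separate cultures.

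The members and the gene lists were chosen with earlier results of these data known. Named genes were all members, HSF1 and, from each other list, up to 3 genes with the largest called SAM difference from the control. Transcript lengths came from Gencode release 44, promoters from RefSeq. Alternatives were median-of-ratios scaling, pseudocounts of 0.1 and 1, other filters on low values, only the groups compared, a replicate block, other library sizes, a fold threshold and leaving out each library.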

Additional observations from a re-analysis of the deposited data

How the results depend on the processing

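Under median-of-ratios scaling the members called higher and lower were 5 and 14 for the SAM system against the control, 1 higher for CRISPR-DREAM, 0 higher for dCas9-VPR, 4 and 1 for the SAM system relative to CRISPR-DREAM, 5 and 8 relative to dCas9-VPR and 5 and 10 relative to the mean of the others. The HSPA1A and HSPA1B sum was then not called in the SAM system relative to the control (0.11), to CRISPR-DREAM (0.22) or to the mean of the others (0.078). With only the groups compared in the fit, CRISPR-DREAM had 1 higher and 4 lower, and the SAM system had 4 higher than CRISPR-DREAM; that fit does not apply to the mean of the others. A fold threshold of 2 left 0 in every comparison. With a replicate block, dCas9-VPR had 4 higher and 11 lower, and the SAM system had 13 higher and 2 lower than CRISPR-DREAM. Shares of all genes called were not counted with only the groups compared, with the block or with a library left out. Member counts under those settings therefore cannot be set against all genes. The differences between same-numbered replicates correlated over genes at 0.133 to 0.326 between groups, but with 2 numbers this does not establish a pairing; the block changed no other count by over 1.5 times. Leaving out each library gave 5 to 13 higher and 4 to 7 lower for the SAM system against the control, 0 to 4 and 3 to 7 for CRISPR-DREAM, 0 to 1 and 1 to 5 for dCas9-VPR, 0 to 8 and 0 to 2 for the SAM system relative to CRISPR-DREAM, 5 to 11 and 1 to 5 relative to dCas9-VPR and 6 to 14 and 1 to 6 relative to the mean of the others. The lowest counts called higher in the SAM comparisons came without SAM replicate 2, and for the mean of the others also without dCas9-VPR replicate 2. The sum then lay between 0.14 and 0.39 in the SAM comparison with the control, between -0.17 and 0.076 for CRISPR-DREAM (positive without control replicate 1 only), between 0.15 and 0.40 for dCas9-VPR, and, for the SAM system, between 0.30 and 0.31 against CRISPR-DREAM, between -0.031 and 0.0089 against dCas9-VPR (positive without dCas9-VPR replicate 1 only) and between 0.15 and 0.23 against the mean of the others. Of 888 values of single genes and module medians with a library left out, 158 lost their call. Under median-of-ratios scaling 27 single-gene calls ended and 78 held. With only the groups compared 10 ended, and without the filter on low values 4 did. No difference of a called gene changed sign. Members that were not called were not followed through all settings, and some changed sign under median-of-ratios scaling. AHSA1 with the SAM system relative to the control, for example, went from 0.05 to -0.10. The cause was not tested. DESeq2 and edgeR were not run, because the values are CPM. With 2 libraries a group, an exact permutation test cannot go below p = 0.333. Changes of 1.25-fold were mostly missed in a simulation that changed far fewer genes than were called in the data.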

Other observations

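The chaperones of the endoplasmic reticulum, which fold secreted and membrane proteins, held decreases with the SAM system and CRISPR-DREAM. Of 16 tested, 0 rose and 6 fell with the SAM system relative to the control (limma, false discovery rate below 0.05). With CRISPR-DREAM 0 rose and 5 fell, and with dCas9-VPR 1 rose and 0 fell. Over all genes 35.7%, 18.8% and 11% rose and 8.89%, 9.25% and 6.68% fell in that order. The medians of the 16 were -0.08, -0.10 and 0.05, relative to 0.16, 0.06 and 0.06 for all genes. After median-of-ratios scaling 10, 8 and 1 of the 16 were lower, relative to 18.1%, 13.2% and 9.16% of all genes. SDF2L1, a cofactor of the luminal HSP70, was at 39.6 and 40.3 CPM in the control libraries, 28.7 and 32.8 with CRISPR-DREAM, 27.4 and 27.2 in the SAM libraries and 38.3 and 40.3 with dCas9-VPR. P4HB, a disulfide isomerase, and CALR, a calcium-binding lectin chaperone, fell with the SAM system by 0.33 and 0.26 (limma adjusted p = 0.000431 and 0.000914). CALR was at 660.1 and 654 CPM in the control libraries, 547 and 551 with the SAM system and 717 and 704 with dCas9-VPR.

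Of 14 prefoldin genes and TRiC cofactors, 6 rose and 0 fell with the SAM system (35.7% and 8.89% of all genes). After median-of-ratios scaling 2 rose and 3 fell (20.9% and 18.1% of all genes). CCT6B, a TRiC subunit gene of the testis, had 1.60 and 0.978 CPM in the control libraries, relative to 2.86 and 3.21 with the SAM system, an increase of 1.00 (limma adjusted p = 0.00274), while its paralog CCT6A did not pass. PDCL3, which assists TRiC, rose by 0.52 (limma adjusted p = 0.00125), and PFDN1, a prefoldin subunit, by 0.29 (limma adjusted p = 0.00219), the last not under median-of-ratios scaling (0.15). Of 11 other mitochondrial chaperones tested, 1 rose (CLPX, 0.37) and 1 fell (CLPB, -0.47) with the SAM system. With dCas9-VPR 5 fell, where 6.68% of all genes fell.

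Rows for pseudogenes named after the members numbered 22, for 10 of the members, and none exceeded 1.41% of the CPM of its gene.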
